A study of Mus musculus with 78 samples.

Results

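The transcripts of 10 genes that silence repeats or write and read histone H3 lysine 9 methylation were measured in single blastomeres of mouse rainbow embryos. The genes are Trim28, Setdb1, Ehmt1, Ehmt2, Suv39h1, Suv39h2, Zfp57, Atrx, Daxx and Cbx5, and they were found in the gene tables by their Entrez identifiers. All 10 were listed in both tables, among 15218 genes for 4-cell and 15342 for 8-cell embryos. The embryos carried a single copy of the Brainbow-2.1 reporter at the ROSA26 locus and a single copy of the CAG-cre/Esr1* transgene, from a cross of both lines. Cre is driven here by the ubiquitous CAG promoter and enters the nucleus upon tamoxifen, after which recombination turns on a fluorescent protein gene that marks a cell and its descendants. All embryos received 4-Hydroxytamoxifen in vitro for 2 hours at the 2-cell stage and were then cultured, so that no untreated embryo serves as a control. The labels list 36 blastomeres of 9 embryos at the 4-cell stage and 31 blastomeres of 4 embryos at the 8-cell stage, and the tables hold 24 and 26 columns, each a blastomere. None of the column names could be matched to an embryo or a lineage, and 5 of the 8-cell columns are named NA. Each stage was therefore counted as 1 sample, no test between stages or lineages was made, and every difference below has no replicate check. Values are FPKM, fragment counts scaled by transcript length and by the reads of the library, and a difference between stages is the 8-cell minus the 4-cell median of log2(FPKM + 1).

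Methylation of histone H3 at lysine 9 marks silent chromatin, and in the early embryo it holds down endogenous retroviruses, LINE elements and imprinted alleles. KRAB zinc finger proteins such as ZFP57 bind DNA by sequence and recruit the scaffold TRIM28, which brings the methyltransferase SETDB1. SUV39H1 and SUV39H2 trimethylate H3K9 in pericentric heterochromatin, EHMT1 (GLP) and EHMT2 (G9a) form a dimer that writes mono- and dimethylation, and the HP1 protein CBX5 binds the methylated tail. ATRX, a chromatin remodeler, and the histone chaperone DAXX deposit the variant histone H3.3 at repeats and telomeres. The preimplantation embryo goes through demethylation of its DNA, and copies of several repeat families are transcribed in this window.

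The libraries differed in depth and in content. The estimated number of fragments behind the FPKM values was between 6.86 and 16.9 M per 4-cell blastomere and between 2.34 and 21.8 M per 8-cell blastomere, the lowest being column S57. Genes above an FPKM of 1 numbered 3009 to 8276 and 3548 to 8078, and 3 blastomeres of each stage had fewer than 5000. Embryo genes were abundant: the summed FPKM of 10 oocyte and embryo markers was at least 2105 in every 4-cell and at least 4840 in every 8-cell blastomere. Of these markers, however, Obox3 was near 0 at both stages. Gdf9, Bmp15 and Oosp1 were listed at a median of 0 at the 8-cell stage, and Nlrp5 at 0.12. A median above 1 was reached by 7 of the 10 at the 4-cell and by 5 at the 8-cell stage, and Dppa3 alone had medians of 3658 and 3260. Of 7 cumulus cell markers, 5 were not listed in either table and the other 2 summed to at most 1.66 in any blastomere.

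A group of 4 columns stood apart at the 4-cell stage. In S13, S14, S15 and S16 the X-linked genes, without Suv39h1 and Atrx, made up 0.0357%, 0.0348%, 0.0396% and 0.0614% of the summed FPKM, against 2.84% to 5.40% in the other 20 blastomeres. The same columns had the lowest share of X-linked copies among the repeat copies above 0, 1.51% to 2.53% against 3.24% to 5.65%. They were not shallow libraries, since their fragments ranged from 13.4 to 16.9 M and their genes above an FPKM of 1 from 6722 to 7912. The lowest X-linked share of an 8-cell blastomere was 2.75%. Suv39h1 and Atrx are on the X chromosome, and several values below are given with and without these columns. No column name says whether the 4 columns are blastomeres of 1 embryo, in which case they would not be 4 independent observations.

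Suv39h1 and Atrx were the members that moved together most at the 4-cell stage, so the 250 bases before their starts are shown. They are RefSeq sequences of GRCm38.p6, the assembly behind mm10, on the minus strand at chrX:8074761-8075010 for the outermost start of Suv39h1 and at chrX:105929373-105929622 for Atrx, written 5′ to 3′. Capitals mark CCAAT boxes and the SP1 motif GGGCGG, searched on both strands. The YY1 motif AAGATGG was searched as well. Further searches took the ETS core CCGGAA. The NRF1 motif searched was GCGCATGC.
Suv39h1: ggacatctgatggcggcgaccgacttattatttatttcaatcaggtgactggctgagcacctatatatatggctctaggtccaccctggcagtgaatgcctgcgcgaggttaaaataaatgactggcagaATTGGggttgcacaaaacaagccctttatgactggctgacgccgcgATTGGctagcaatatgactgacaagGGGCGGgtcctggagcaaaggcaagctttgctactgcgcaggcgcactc
Atrx: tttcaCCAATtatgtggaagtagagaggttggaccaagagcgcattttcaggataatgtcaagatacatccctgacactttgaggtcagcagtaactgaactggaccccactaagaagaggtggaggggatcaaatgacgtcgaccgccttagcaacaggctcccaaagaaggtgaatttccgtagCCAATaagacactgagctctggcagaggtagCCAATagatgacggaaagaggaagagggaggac
Both windows hold the CCAAT box, 2 copies in Suv39h1 and 3 in Atrx, and 34.5% of the 27025 promoter windows of this length hold at least 1. GGGCGG occurred a single time before Suv39h1 and not in the Atrx window, and 32.9% of all windows hold it. The YY1, ETS and NRF1 motifs, held by 4.53%, 12.2% and 2.32% of all windows, were found in neither. The windows carried 11 and 6 CG pairs, beside a median of 6 over all windows. The window before a second annotated start of Suv39h1, at chrX:8074362-8074611 inside the gene and not shown, differs from the outermost: it holds 1 YY1 and 1 SP1 motif, no CCAAT box and 25 CG pairs.

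Suv39h1 (Entrez 20937, chrX:8061171-8074760) encodes an enzyme that writes H3K9 trimethylation in constitutive heterochromatin. At the 4-cell stage its lowest FPKM was 0, its median 9.67 and its highest 127, in column S18. The blastomeres in columns S13, S15 and S16 were listed at 0 and S14 at 0.0179, which is about a single fragment, whereas the other 20 blastomeres lay between 2.86 and 127 with a median of 11.3. Thus the 4 columns with little X-linked RNA were exactly the 4 lowest for Suv39h1, without overlap. They had been picked by their X-linked share. Other X-linked genes above an FPKM of 1 numbered 23 to 34 in them and 97 to 294 in the rest. Low values there were therefore not particular to Suv39h1, and the share of X-linked genes without overlap was not counted. Its 8-cell level ranged from 0 to 69.3 with a median of 16.5, and 6 blastomeres lay at or below an FPKM of 1. These were S55 at 0.0197, S56 at 0.0162, S48 at 0.409, and S57, S58 and S65 at 0, and their X-linked shares, 3.12% to 5.31%, were within the range of the stage. Among them S55, S57 and S58 are the 3 8-cell blastomeres under 5000 genes, and S56 had 5248. The 8-cell minus 4-cell difference was 0.71, or 0.51 without columns S13 to S16 and 0.026 with means in place of medians, against an SD between blastomeres of 2.08 on the log2 scale, and the ranges of both stages overlapped.

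Atrx (Entrez 22589, chrX:105797615-105929372) had a 4-cell range of 0.00637 to 125 with a median of 24.6. Columns S13, S14, S15 and S16 held 3.56, 2.55, 0.00637 and 5.84, and the other 20 blastomeres 14.3 to 125 with a median of 27.2. The lowest value corresponds to 1 fragment of a transcript that carried a median of 2910 fragments. The 4 columns, picked by their low X-linked share, were again the 4 lowest, and 3 of them lay between 2.55 and 5.84. Low values in these columns were not particular to Atrx either. The 8-cell range was 0.0311 to 49.2 and the median 20.9, and the lowest blastomere, S58, was followed by S65 at 7.15. The stage difference was -0.22 (-0.36 without columns S13 to S16), smaller than the SD between blastomeres of 1.29.

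**Figure D1:**
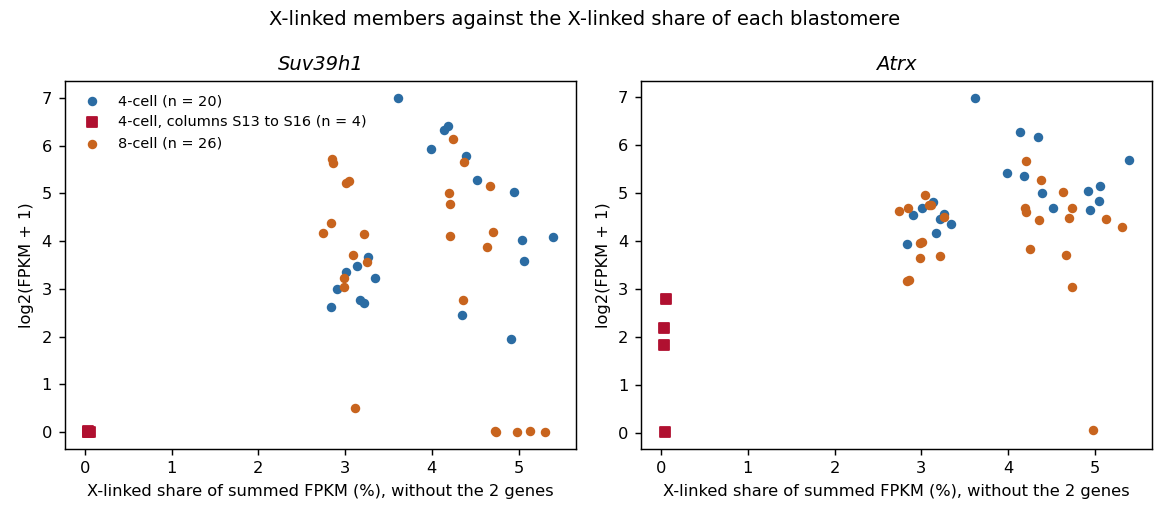
FPKM of Suv39h1 and Atrx as log2(FPKM + 1) on the y axis against the share of the summed FPKM from X-linked genes other than these on the x axis (%), with 1 point per blastomere. The squares are the 4-cell columns S13 to S16, at most 0.0614%, and they lie below the other 4-cell blastomeres for both genes, while the 8-cell points at 0 for Suv39h1 have X-linked shares of 4.74% to 5.31%.

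Across the 24 blastomeres of the 4-cell stage Suv39h1 and Atrx had a Spearman rho of 0.725, the highest of the 45 pairs of members, whose median was 0.09. Without columns S13 to S16 it was 0.53 over 20 blastomeres. Among the expressed genes 99.9% had a lower rho with Suv39h1 than Atrx had. At the 8-cell stage the same pair had a rho of 0.17, and no pair reached 0.5, with a range of -0.35 to 0.46 and a median of 0.12. The Spearman correlation with the X-linked share was 0.61 for Suv39h1 and 0.73 for Atrx at the 4-cell stage, 0.34 and 0.53 without the 4 columns, and -0.47 and -0.00239 at the 8-cell stage. Autosomal members had values of like size without the 4 columns, -0.62 for Trim28, 0.38 for Setdb1 and 0.36 for Cbx5. These are descriptions over blastomeres that share embryos, library preparation and unequal depth, and carry no p-value.

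Suv39h2 (Entrez 64707, chr2:3455815-3474986), the paralog of Suv39h1, was the lowest member at both stages. At the 4-cell stage it was listed at 0 in 10 of 24 blastomeres, its median was 0.0175, about 1 fragment, and its highest value was 14.98 in column S24. In 8-cell embryos 9 of 26 blastomeres were listed at 0, the median was 0.387 and the highest value 7.34. A level of 3 fragments would be at most 0.102 FPKM in 4-cell and 0.299 FPKM in 8-cell blastomeres, so that values below these rest on fewer than 3 fragments in the shallowest library. The gene did not reach a median of 1 at either stage and was left out of the count between stages. In the 4-cell columns without Suv39h1, its paralog was at 0 in S13, 5.35 in S14, 0.898 in S15 and 5.53 in S16, which placed S16 at rank 3 and S14 at rank 4 of 24. In the 6 8-cell blastomeres with Suv39h1 at or below 1, Suv39h2 was listed at 0 in 5 and at 0.329 in S48. Most of these libraries held few genes. S55, S56, S57 and S58 had 4963, 5248, 3548 and 4263 genes above an FPKM of 1, and only 4 or 5 of the 10 members. S48 and S65 had 7673 and 6809 genes. Both paralogs exceeded 1 in 5 4-cell and 11 8-cell blastomeres, Suv39h1 alone in 15 and 9, Suv39h2 alone in 2 and 0, and neither in 2 and 6. Their rho was -0.30 in 4-cell and 0.43 in 8-cell blastomeres, and 0.26 at the 8-cell stage without the blastomeres under 5000 genes. The locus overlaps Dclre1c, and Smart-seq2 does not mark strand, so reads in the overlap cannot be told apart. The same holds for Trim28 with Gm31649, Setdb1 with Cers2, and Atrx with Gm26020, Gm14853 and Gm23656.

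Trim28 (Entrez 21849, chr7:13024152-13031032), the corepressor that KRAB zinc fingers recruit, was the most abundant member. Its 4-cell FPKM ran from 8.12 in S4 to 164.5 in S16 with a median of 59.8, and its 8-cell FPKM from 25.6 in S52 to 280 in a column named NA with a median of 121. No blastomere lacked it, and at least 368 fragments stood behind every value. Its 8-cell level was above the 4-cell median in 23 of 26 blastomeres, and 21 of 24 4-cell blastomeres were below the 8-cell median. The difference of 0.998 on the log2 scale lay just under the 2-fold limit, beside an SD between blastomeres of 0.87. The columns named NA held 139, 166, 280, 243 and 216.5, all above the 8-cell median, and without them the difference was 0.63. Trim28 ranked higher than 89.8% of the genes of the 4-cell table and 95% of those of the 8-cell table by median FPKM.

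Setdb1 (Entrez 84505, chr3:95323525-95357202), the methyltransferase that acts with TRIM28, had a lower median than Trim28 at both stages. It ranged from 0.931 to 18.5 with a median of 6.14 at the 4-cell stage and from 0 to 20.2 with a median of 8.32 at the 8-cell stage, where S55 and S57 were listed at 0. The groups overlapped fully, and the difference was 0.38, or 0.64 without columns S13 to S16, against an SD of 1.17. Zfp57 (Entrez 22715, chr17:37001163-37010729), the KRAB zinc finger protein that protects imprints, had a lower median at the 8-cell stage. It ranged from 0 to 39.45 with a median of 12.2 at the 4-cell stage, where 2 blastomeres were listed at 0, and from 0 to 18.2 with a median of 5.93 at the 8-cell stage, where 7 were. Its difference was -0.91, and -1.21 without columns S13 to S16, beside an SD of 1.54. Only 5 of 26 8-cell blastomeres were above the 4-cell median of Zfp57.

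Ehmt1 (Entrez 77683, chr2:24790769-24919643) and Ehmt2 (Entrez 110147, chr17:34898463-34914073) encode the partners of the GLP and G9a dimer. Ehmt1 had 0.796 to 22.1 with a median of 9.04 at the 4-cell stage and 0 to 27.1 with a median of 5.68 at the 8-cell stage. Ehmt2 had 0 to 51.6 with a median of 6.17 at the 4-cell stage and 0 to 31.6 with a median of 4.85 at the 8-cell stage. The stage differences were -0.59 and -0.30, each smaller than its SD between blastomeres of 1.20 and 1.41. Although the proteins act together, the transcripts had a rho of 0.07 in 4-cell and -0.02 in 8-cell blastomeres.

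Daxx (Entrez 13163, chr17:33909404-33915590), the chaperone of H3.3, was the member with the largest difference between stages. At the 4-cell stage it was listed at 0 in 9 of 24 blastomeres, its median was 1.84 and its highest value 44.5 in S19. In 8-cell embryos 7 of 26 were listed at 0, the median was 10.4 and the highest value 30.7. The difference was 2.03, a 4.08-fold higher value of FPKM + 1, and 19 of 26 8-cell blastomeres were above the 4-cell median. The highest 4-cell value exceeded every 8-cell value, so the ranges overlapped, and the SD between blastomeres was 1.84. The size of the difference varied with the blastomeres included: it was 1.33 without columns S13 to S16, which held 0, 0, 1.31 and 2.37, 1.49 without the 6 blastomeres under 5000 genes, and 1.01 when means of log2 values replaced medians. Its partner Atrx had a difference of -0.22, and their rho was 0.16 in 4-cell and 0.24 in 8-cell blastomeres. The 4-cell rho was -0.0077 without columns S13 to S16 and 0.41 without the blastomeres under 5000 genes.

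Cbx5 (Entrez 12419, chr15:103191546-103239904) encodes HP1 alpha, a reader of H3K9 methylation. It was present in every blastomere, from 11.5 to 54.4 with a median of 22.7 at the 4-cell stage and from 6.998 to 58.35 with a median of 24.1 at the 8-cell stage. The difference between stages was 0.08, beside an SD of 0.61, the lowest SD of the members. At least 1031 fragments stood behind each value.

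**Figure D2:**
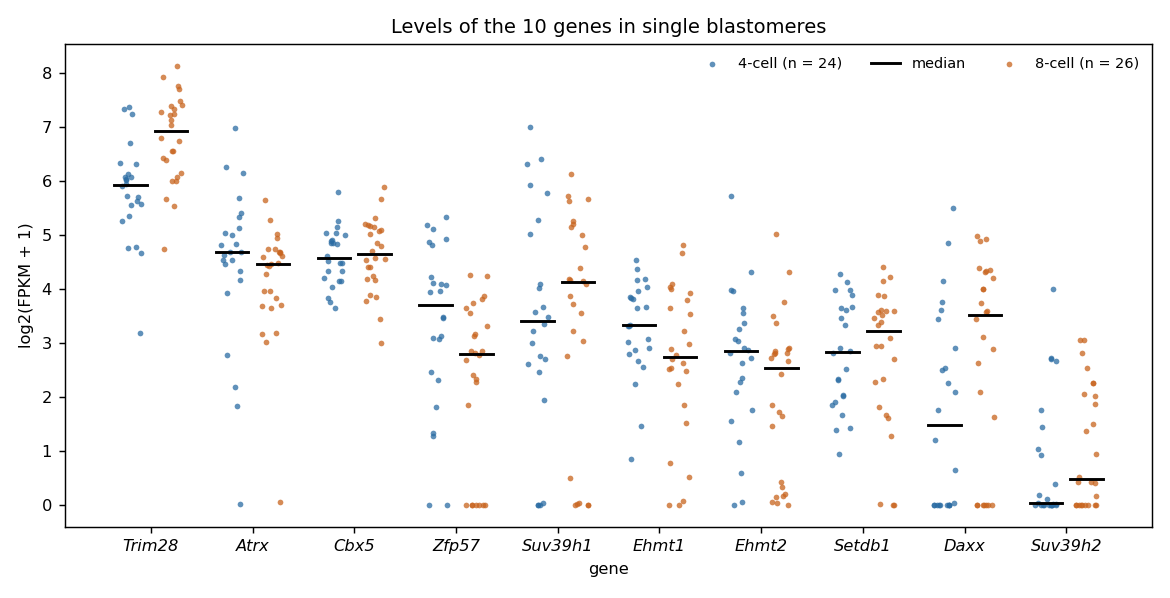
Level of each member as log2(FPKM + 1) on the y axis in the 24 4-cell (blue) and 26 8-cell (orange) blastomeres, with 1 point per blastomere, a bar at the median, and genes ordered by 4-cell median. Trim28 has the highest medians (59.8 and 121 FPKM) and Suv39h2 the lowest (0.0175 and 0.387 FPKM), and points at 0 are seen for 5 of the genes in 4-cell and for 7 in 8-cell blastomeres.

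In order of 4-cell medians the members ran Trim28, Atrx, Cbx5, Zfp57, Suv39h1, Ehmt1, Ehmt2, Setdb1, Daxx and Suv39h2. For 8-cell medians the order was Trim28, Cbx5, Atrx, Suv39h1, Daxx, Setdb1, Zfp57, Ehmt1, Ehmt2 and Suv39h2. FPKM is scaled by transcript length, so levels of different genes can be set side by side. Trim28 stood clear of its neighbour, with a first quartile of 44.5 above the third quartile of Atrx, 35.5, at the 4-cell stage, and 73.0 above that of Cbx5, 34.1, at the 8-cell stage. All other neighbours in either order had overlapping interquartile ranges, Suv39h2 included.

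A single member of the 9 with a median FPKM above 1 in at least 1 stage, Daxx, passed a 2-fold higher median at the 8-cell stage and none a 2-fold lower. Of the 7131 genes that met the same filter, 9.87% were at least 2-fold higher and 18.5% at least 2-fold lower at the 8-cell stage. Trim28 (0.998) and Zfp57 (-0.91) lay just inside the limit, and the count was 1 to 3 over the alternatives tried. The median difference of the 9 members was 0.08, against -0.11 over all genes compared. When every column was rescaled to the same sum over the shared genes, the median of all genes was -0.05 and no member changed its direction. With means in place of medians Setdb1 turned to -0.049, and without the blastomeres under 5000 genes Ehmt2 turned to 0.0077.

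The other genes of the pathway were counted in 8 lists of 42 genes, of which 33 met the filter. Of these, 3 had a 2-fold higher and 4 a 2-fold lower median in 8-cell blastomeres, and the median difference was -0.05. Over all 7131 genes that met the filter, 9.87% were at least 2-fold higher and 18.5% at least 2-fold lower. The counts of the lists were not tested against these shares. Atf7ip, the cofactor that stabilizes SETDB1, had a median of 3.82 in 4-cell and 8.87 in 8-cell blastomeres, a difference of 1.04. It ranged from 0 to 56.5 in 4-cell and from 0 to 44.65 in 8-cell blastomeres. It was the only gene past the limit among 8 partners of SETDB1 and SUMO enzymes. The KRAB zinc finger gene Zfp568, needed for silencing of an Igf2 transcript in the placenta, went from 15.7 to 39.1, a difference of 1.26. It was above an FPKM of 1 in 23 of 24 4-cell and in all 26 8-cell blastomeres. Its 4-cell range, 0.0259 to 107.8, covered the 8-cell range, 4.71 to 68.4. The H3K9 demethylase Kdm3b had medians of 2.30 and 7.14, a difference of 1.30, while the demethylase Kdm7a had 4.83 and 1.91, a difference of -1.002. Of 11 demethylase genes, 5 met the filter. Of 3 partners of G9a and GLP, 2 passed the limit and were lower. Zfp644 had medians of 30.7 and 7.74, a difference of -1.86, and Cdyl, which binds methylated H3K9, had 1.63 and 0, a difference of -1.38. The third, Wiz, had medians of 0 and 0.17 and did not meet the filter. Setdb2, a relative of Setdb1, had medians of 23.5 and 8.10, a difference of -1.42. None of the 4 genes of the HUSH list, of the 2 other HP1 genes or of the 7 further silencing factors passed the limit in either direction. For every gene of the lists past the limit, the ranges of both stages overlapped. With means in place of medians 3 genes of the lists passed it.

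**Figure D3:**
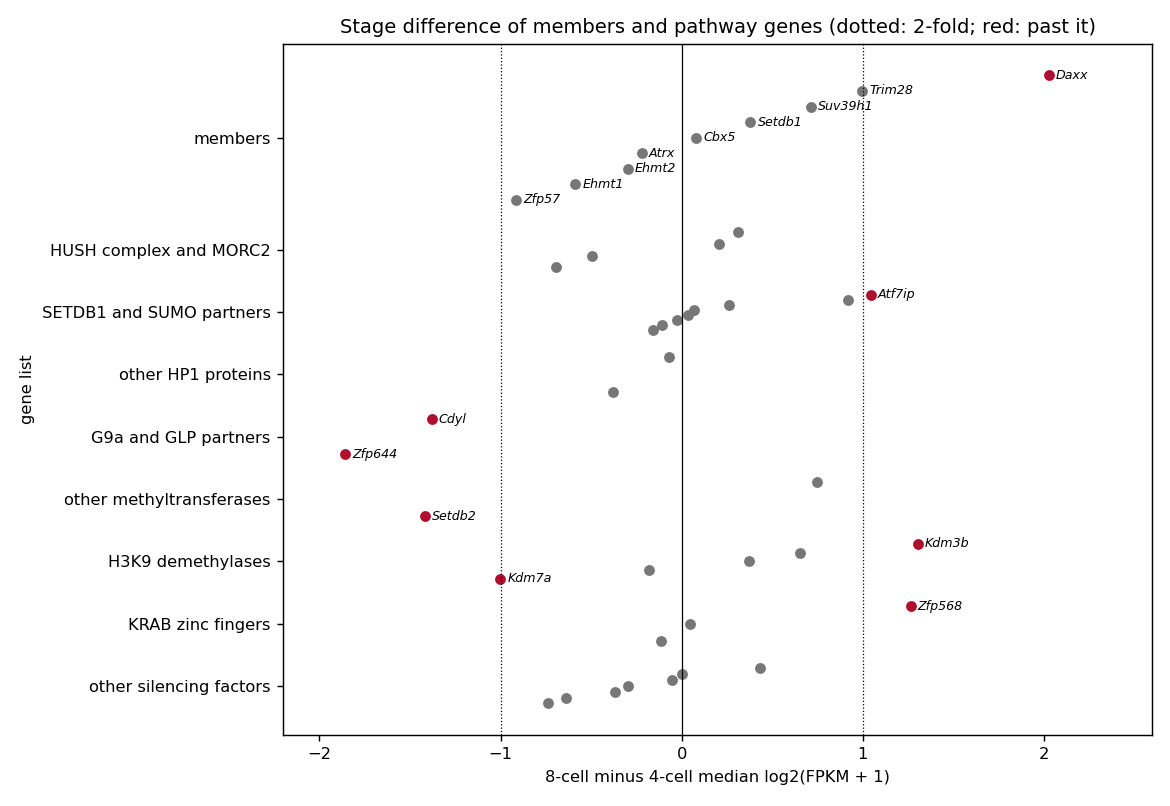
Difference of the 8-cell and 4-cell medians of log2(FPKM + 1) on the x axis for the members and pathway genes that met the filter, grouped by list on the y axis, with dotted lines at a 2-fold difference and red points past it. Daxx is the single member past the line at 2.03, Trim28 lies just under it at 0.998, and Zfp644 is the lowest gene at -1.86.

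Unevenness between blastomeres was described with the coefficient of variation (CV) of FPKM and compared with genes whose mean FPKM was within 2-fold. Cbx5 was among the evenest genes of its level, with a CV of 0.39 at the 4-cell stage against a median of 0.79 over 2428 like genes, of which 0.989% had a lower CV. Its 8-cell CV was 0.46 against 0.78, and 4.00% of like genes were lower. Ehmt1 (0.55) and Setdb1 (0.71) were also even at the 4-cell stage, where 1.96% and 5.58% of like genes had a lower CV, and Setdb1 (0.71) and Atrx (0.52) at the 8-cell stage, with 6.44% and 5.08%. At the other end Suv39h1 at the 4-cell stage had a CV of 1.36, more than 94.9% of like genes, and 1.17 without columns S13 to S16. Daxx followed at the 4-cell stage with 1.70, above 83.4% of like genes, and had 0.91 at the 8-cell stage, above 31.6%.

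Ehmt2 had a CV of 1.24 at the 4-cell stage that rested on 1 blastomere. Column S20 held 51.6, the next highest was 18.8, and without S20 the CV was 0.77. S20 had 3699 genes above an FPKM of 1 and is among the 3 blastomeres under 5000 genes, without which the CV was 0.82. The 8-cell CV of Ehmt2 was 1.26, and its highest value, 31.6 in S54, was 6.51 times the median. Of the same 9 members, 3 had a CV above 1 in 4-cell and 1 in 8-cell blastomeres, where 32.7% and 31% of all expressed genes, those with a median FPKM above 1 at that stage, did. The median CV of these members was 0.84 and 0.87, and that of all expressed genes 0.81 and 0.79.

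**Figure D4:**
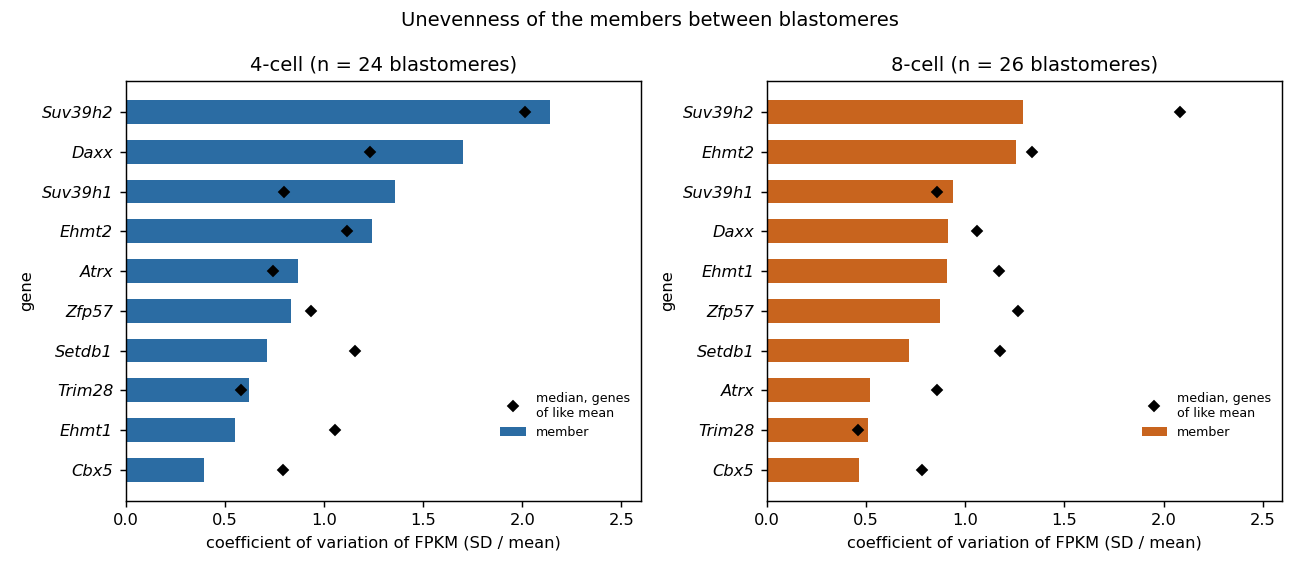
Coefficient of variation of FPKM between blastomeres on the x axis for each member (bars) at the 4-cell and 8-cell stages, with diamonds at the median of genes whose mean FPKM is within 2-fold. The bar of Cbx5 (0.39 and 0.46) ends well before its diamond (0.79 and 0.78), and that of Suv39h1 at the 4-cell stage (1.36) ends beyond it (0.80).

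Some libraries held few of the members. Of the 10 genes, 7 to 10 exceeded an FPKM of 1 in a 4-cell blastomere and 4 to 10 in an 8-cell blastomere. The lowest counts were 4 in S57 and S58 and 5 in S55 and S56. S57 had the fewest fragments and listed 5 members at 0, and S58, with 12.6 M fragments and 4263 genes, listed 4 at 0 and Atrx at 0.0311. The Spearman correlation between the number of members above 1 and the number of genes above 1 was 0.44 in 4-cell and 0.52 in 8-cell blastomeres. The part of depth in the zeros of single members was not tested.

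The number of repeat copies with a value above 0 was taken in each blastomere. Copies inside transcripts of genes were not set apart, so this count does not measure transcription of repeats alone. It ranged from 22238 to 56875 with a median of 36838 among the 278683 copies of the 4-cell table, and from 9582 to 64388 with a median of 36262 among the 327627 copies of the 8-cell table. This count moved with the number of expressed genes (rho 0.63 and 0.57) and with the fragments (rho 0.35 and 0.44). At the 4-cell stage no member had a rho of 0.5 or more or of -0.5 or less. In the 4-cell background 4.11% of expressed genes reached 0.5 and 0.384% reached -0.5. The members' median was -0.05 and that of all expressed genes 0.15.

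The 4-cell rho of Daxx was 0.13, 0.35 without columns S13 to S16 and -0.16 without the 3 blastomeres under 5000 genes, and that of Ehmt2 was 0.025, -0.13 and 0.32. The lowest 4-cell values belonged to Atrx (rho -0.42) and Suv39h1 (-0.36), below which lay 1.12% and 2.23% of expressed genes. Columns S13 to S16 had 39038 to 56875 copies above 0 and the lowest values of both genes. Without them the rho of Atrx was -0.19 and that of Suv39h1 -0.06. Given the number of expressed genes, the partial rho over all 24 blastomeres was -0.26 and -0.19. In the same way Setdb1 went from 0.11 to 0.41 and Cbx5 from -0.012 to 0.38, while Ehmt2 had 0.23 and Daxx 0.087. With the sum of the repeat values in place of the number of copies, Atrx had 0.06 and Suv39h1 -0.011. The same change took Trim28 from -0.21 to 0.49 and Setdb1 from 0.11 to -0.41, so these signs and sizes depended on how repeats were counted.

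At the 8-cell stage 3 of 9 members reached a rho of 0.5, namely Ehmt2 (0.58), Setdb1 (0.54) and Daxx (0.51), and none reached -0.5. Among all expressed genes 4.54% reached 0.5 and 3.14% reached -0.5. Trim28 (0.48) and the low gene Suv39h2 (0.44) followed. The median of the 9 members was 0.24, against 0.08 over all expressed genes. Given the number of expressed genes the partial rho was 0.63 for Ehmt2, 0.52 for Trim28, 0.47 for Setdb1 and 0.29 for Daxx, the gene that moved most with the number of expressed genes itself (rho 0.54). Without S57, the library with the fewest fragments, Ehmt2 had 0.53, Setdb1 0.48 and Daxx 0.46, so that 1 member reached 0.5. Without the 3 blastomeres under 5000 genes the values were 0.41 for Ehmt2, 0.45 for Setdb1, 0.34 for Daxx and 0.49 for Trim28, all under 0.5. Given the fragments, the partial rho was 0.51 for Ehmt2, 0.49 for Daxx, 0.46 for Trim28 and 0.41 for Setdb1. With the sum of the repeat values Daxx had 0.16, while Setdb1 had 0.62, Ehmt2 0.50 and Trim28 0.38. Zfp57 (-0.20), Suv39h1 (-0.07) and Cbx5 (-0.03) lay at the other end, and Suv39h1 had -0.48 without those blastomeres, which held none of it in S57 and S58.

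**Figure D5:**
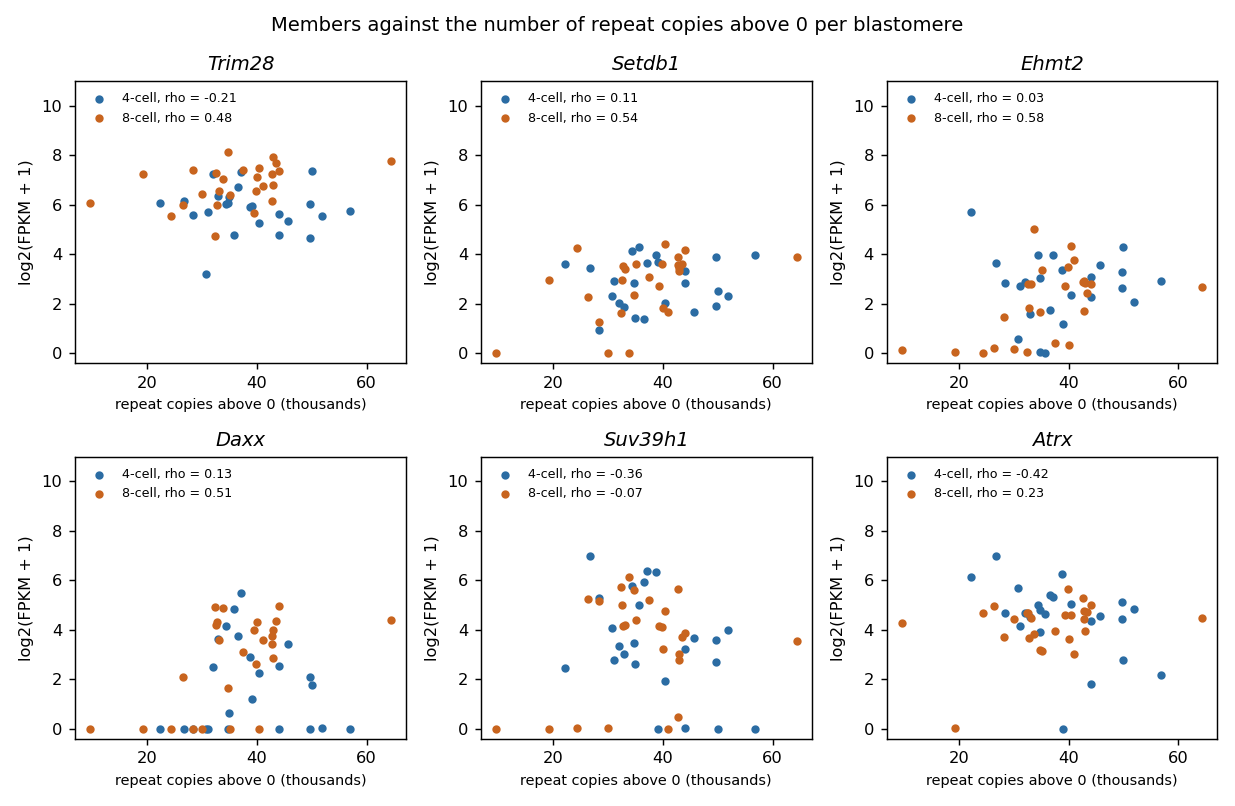
Level of 6 members as log2(FPKM + 1) on the y axis against the number of repeat copies above 0 (in units of 1000) on the x axis, with 1 point per blastomere and Spearman's rho in each panel. The 8-cell points of Setdb1, Ehmt2 and Daxx climb with the number of copies (rho 0.51 to 0.58), the leftmost point being S57 with 9582 copies, and the 4-cell rho of the same genes is 0.025 to 0.13; the difference between stages was not tested.

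The values varied with the repeat family. For intracisternal A particles (IAP), the retroviral family that TRIM28 and SETDB1 are known to repress, the 4-cell rho was 0.17 for Trim28, 0.19 for Setdb1 and -0.33 for Zfp57, and the 8-cell rho 0.35, 0.40 and -0.08. The medians over expressed genes for IAP copies were -0.11 and 0.06. MERVL and MT2_Mm copies, which mark the 2-cell program, had a 4-cell rho of 0.48 with Setdb1, 0.25 with Atrx and -0.49 with Zfp57, while 5.16% and 13.5% of expressed genes lay beyond 0.5 and -0.5. Without columns S13 to S16 these values were 0.46, 0.67 and -0.42, so the order of Setdb1 and Atrx turned. Without the same columns Atrx went from 0.32 to 0.54 with IAP copies and from -0.45 to -0.069 with B2 copies, and Suv39h1 from 0.083 to 0.415 with MERVL and MT2_Mm copies and from -0.24 to 0.28 with B2 copies. At the 4-cell stage Atrx had -0.56 and Suv39h1 -0.50 with B1 copies, and 1.24% of expressed genes had -0.5 or less. Without columns S13 to S16 these values were -0.41 and -0.29, and that of Trim28 went from -0.43 to -0.67. Among 8-cell blastomeres the highest family values were 0.64 for Ehmt2 with MT copies, 0.62 for Daxx with L1Md copies and 0.56 for Ehmt2 with IAP copies. With these families 2.25%, 4.35% and 4.14% of expressed genes had 0.5 or more. The 3 values are the highest over all members and families, and they include S57 and the other blastomeres under 5000 genes. B2 copies gave a different picture, with a members' median of -0.011 and -0.10 for Setdb1. Copies of 1 family lie in many places, and reads that align to several copies were not counted by the authors.

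The gene most like a member over both stages was sought among 5865 other genes with a median FPKM above 1 in each. The highest mean rho was 0.66 between Ehmt2 and Zfp280b (0.56 and 0.77 at the 4-cell and 8-cell stages), followed by 0.65 between Trim28 and Zbtb10 (0.65 and 0.66). For Atrx it was the X-linked gene Hccs (0.725 and 0.51), and without columns S13 to S16 the 4-cell value was 0.53. Setdb1 was most like Pdpk1 (mean 0.62), Daxx most like Chtop (0.56), Suv39h2 most like Tstd2 (0.53), Cbx5 most like Plekhf2 (0.51), Ehmt1 most like Espl1 (0.50) and Zfp57 most like Mkks (0.47). The highest of so many correlations is large by selection, and these names are descriptions of the 50 blastomeres.

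Among named pairs that act together, Trim28 and Setdb1 had a rho of -0.17 in 4-cell and 0.18 in 8-cell blastomeres, and Trim28 and Zfp57 -0.31 and -0.26. The median rho of Trim28 with all expressed genes was -0.04 and 0.01, and 16.3% and 13.6% of genes lay below the value of Zfp57.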

How the data were processed

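Smart-seq2 libraries of single blastomeres were sequenced as read pairs. The authors aligned reads with STAR 2.5.1b to mm10, kept those that align uniquely, and counted them with HTSeq on RefSeq genes and RepeatMasker copies. They deposited FPKM values for genes and a score of unstated unit for repeat copies, of which only whether it exceeds 0 was used, except where sums are named. The gene lengths and totals behind FPKM, and strand use in counting, are not given in the sources used here. No column was matched to an embryo, so the planned test between lineages was not run. Samples of 5-cell or 6-cell embryos were not used here.

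Symbols, positions and exon lengths came from RefSeq on GRCm38.p6. Fragment totals were estimated from genes with 1 curated transcript, as the commonest value that 1 fragment gives among the lowest 0.3 of values, and tested on simulated data. Fragments are not independent molecules, and limits of 3 fragments cover counting error only. Genes with a median FPKM above 1 in at least 1 stage were compared with a pseudocount of 1, and a call is a 2-fold difference of medians. Spearman's rho, Pearson's r, partial rho and CVs were computed in Python. Versions were Python 3.11.15, numpy 2.4.6, pandas 2.3.3, scipy 1.17.1 and matplotlib 3.10.9. Members, lists and tests were chosen with earlier results of these data known. The genes named are the 10 members, pathway genes past 2-fold, and the most alike gene of each member, which is not reported here for Suv39h1. Alternatives were a pseudocount of 0.1, rescaled columns, means, no filter, other counts of repeats, partial correlations, and sets of columns left out.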

Additional observations from a re-analysis of the deposited data

How the results depend on the processing

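Each stage was counted as 1 sample, since columns were not matched to embryos, and no alternative was given a test. No paired analysis was possible because no column name matches a label that gives an embryo, and the fits between lineages were not run for the same reason. Matching columns to embryos by their order, depth or Y-linked values was not tried, and a comparison resting on such a match was not tested. The count of members past 2-fold was 1 and became 3 with a pseudocount of 0.1, and 2 with rescaled columns, with means, without the 8-cell blastomere with the fewest fragments, without blastomeres under 5000 genes, and without the 4-cell columns with little X-linked RNA, a choice made after seeing the data; leaving out single blastomeres gave 1 to 3. These changes came from Trim28 and Zfp57 crossing the limit. The count of pathway genes was 7, 3 with means, and 5 to 8 when single blastomeres were left out. The median difference over all 10 members was 0.23, and ranged from 0.14 to 0.32 without single blastomeres and from -0.011 to 0.34 over the other alternatives. The members' median rho with repeat copies at the 4-cell stage was -0.05, 0.17 with IAP copies and 0.23 with MERVL and MT2_Mm copies, and -0.16 to 0.02 without single blastomeres. At the 8-cell stage it was 0.24, -0.011 with B2 copies, for which Setdb1 reversed to -0.10, and 0.17 to 0.38 without single blastomeres. The median CV of all 10 members was 0.85 and 0.89, with ranges of 0.78 to 0.88 and 0.85 to 0.92 without single blastomeres, and the SD of log2(FPKM + 1) was 1.26 and 1.37. Of 373 other values of single members under other settings, 299 moved by less than the limit taken, which was the SD between blastomeres for stage differences, a 1.5-fold change for CVs, and for correlations 1 over the square root of the number of blastomeres less 1. Of 1000 stage differences and CVs that left out a blastomere, 999 did, the exception being the CV of Ehmt2 without S20, and the correlations of single members were not in that count. Leaving out a blastomere moves a median by far less than this SD, so these counts do not show that stage differences are stable. With means Daxx went from 2.03 to 1.01, Suv39h1 from 0.71 to 0.026 and Setdb1 from 0.38 to -0.049, all within the limit. Values under about 3 fragments could not be told from 0.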

Other observations

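The 4-cell columns with little X-linked RNA kept a few X-linked transcripts. Of 542 X-linked genes in the table, 8 exceeded an FPKM of 1 in all 4 columns: Ddx3x, Erdr1, Pola1, Prps1, Usp9x, Akap17b, Gm6568 and Cul4b. Ddx3x had 7.71, 3.13, 15.3 and 37.5 in S13, S14, S15 and S16, and Erdr1, a gene of the pseudoautosomal region, had 11.6, 11.5, 32.4 and 34.3. The Y-linked gene Ddx3y was present at 18.92, 14.02, 0.676 and 21.99. Y-linked genes summed to 54.5, 14.9, 47.6 and 51.6 FPKM. They were not particular to these columns, since the sums were 24.96 to 126 in S5 to S12, and at most 0.0857 in the other 12 4-cell columns. Among the other members Trim28 had 51.9, 48.4, 60.8 and 164.5 (ranks 14, 16, 12 and 1 of 24 from the highest), Cbx5 21.99, 21.3, 37.2 and 31.9 (ranks 13, 15, 2 and 4) and Zfp57 3.96, 14.6, 2.51 and 4.54 (ranks 19, 11, 20 and 18).

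The autosomes that carry members were compared within each blastomere with at least 5000 genes, as the median over expressed genes of log2(FPKM + 1) minus the gene's stage median, less the median of this value over all chromosomes. At the 8-cell stage the lowest of these was chromosome 17 in a column named NA, at -0.41, and the highest was chromosome 17 in S68, at 0.30. Chromosome 17 carries Daxx, Ehmt2 and Zfp57, which had 2.10, 2.14 and 0 FPKM in that column, below the 8-cell medians of 10.4, 4.85 and 5.93. In S68 Daxx had 19.3, above its median, but Ehmt2 had 4.38 and Zfp57 0, below theirs. At the 4-cell stage the range was -0.30 to 0.24. The part of a whole chromosome in the values of single members was not tested.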
